A study of Mus musculus with 12 samples.

Results

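The loss of p53 was examined in neural progenitor cells (NPCs) kept in contact with brain microvascular endothelial cells (bmvECs). Of 12 bulk RNA-seq libraries in 4 groups, the 6 co-culture libraries carry this comparison, with 3 of p53-/- NPCs and 3 of p53+/+ NPCs, and all 13745 genes that passed the low-count filter were compared. The NPCs came from the subventricular zone (SVZ) of mice of postnatal days 9 to 12, taken here as C57BL/6. The study's methods describe its conditional p53 knockout mice as of a mixed background that includes C57BL/6J, and name no strain for the NPCs. For co-culture, purchased primary bmvECs formed the monolayer on which the NPCs spent 48 h before selective trypsinization took them off. The other groups are NPCs of both genotypes cultured alone. The p53-/- NPCs were p53LoxP/LoxP NPCs recombined in vitro by an adenovirus that carries Cre under the CMV promoter, so that p53 is lost acutely in cultured cells, while the p53+/+ NPCs are named as wild type. An empty adenovirus of the same kind is the control for p53 loss-of-function experiments in the study's methods. The sources used here do not say whether the p53+/+ libraries in particular received it. If they did not, the virus and the genotype cannot be told apart in these groups. The experiments carry the numbers 17_9, 25_9 and 1_10, with 1 library of every group in each of the 3, and libraries of the same experiment were compared as a pair.

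p53 is a transcription factor that is held at low levels by its own target Mdm2. When it accumulates after DNA damage or other stress, it binds response elements near its targets and activates genes that stop the cell cycle, repair DNA, alter metabolism or start apoptosis. Much of its repression of cell-cycle genes runs through its target p21, encoded by Cdkn1a, which inhibits cyclin-dependent kinases. In the SVZ, p53 is known as a brake on the self-renewal of neural stem cells, the astrocyte-like type-B cells that lie against blood vessels, and endothelial contact is known to favour their quiescence.

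Total counts ranged from 18472497 to 22245224 in the p53+/+ and from 18474243 to 19218337 in the p53-/- co-cultures, and few counts limit the precision of genes of low expression. Markers of neural progenitors were high in all 6 libraries. The intermediate filament gene Nes was at 835 to 1127 CPM (counts scaled to library size after TMM normalisation) in p53+/+ and 833 to 1168 in p53-/- co-cultures, and the transcription factor gene Sox2 at 201 to 217 and 196 to 272. Fabp7, at 3126 to 3385 and 2585 to 3335 CPM, also overlapped. Other markers were lower in p53-/- co-cultures without overlap. These were Vim (3275 to 4710 and 2237 to 2796 CPM), Slc1a3 (3523 to 4048 and 2910 to 3195) and Gfap (8652 to 15515 and 4853 to 8209). Endothelial transcripts were also present. The summed level of 33 endothelial genes was 369, 324 and 254 CPM in the p53+/+ co-cultures of experiments 17_9, 25_9 and 1_10. In the p53-/- co-cultures it was 279, 252 and 242 CPM, lower within each experiment, with overlapping ranges. Of the 33 genes, the adhesion molecule gene Pecam1 was at 9.85 to 18 and 8.14 to 12.8 CPM. At an adjusted p under 0.05, 10.3% of all genes tested were higher and 11.1% lower in p53-/- co-culture. Of the 29 endothelial genes tested, 0 were higher and 1, the VEGF receptor gene Flt1, was lower (-0.64 ± 0.19 on the log2 scale, adjusted p = 0.0292, edgeR). Its call was lost in 6 of the 15 fits that leave out 1 library or 1 experiment (without experiment 25_9, -0.79, adjusted p = 0.0949) and without the block (adjusted p = 0.112). Called or not, 4 of the 29 endothelial genes had a log2 fold change above 0, and the median was -0.28. With other settings of the fit, between 0 and 8 of them were called lower. The median log2 ratio of the endothelial genes was -0.49 in experiment 17_9, -0.48 in 25_9 and 0.07 in 1_10. In bulk RNA, fewer cells of a type and less RNA per cell cannot be told apart.

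Trp53 was the check of the genotype. It was at 61.8, 65.9 and 78.8 CPM in the p53+/+ co-cultures of experiments 17_9, 25_9 and 1_10, and at 18.4, 19.3 and 13.7 CPM in the p53-/- co-cultures. All p53-/- libraries lay below all p53+/+ libraries, and reads of the gene remained in each of them. The log2 fold change, p53-/- minus p53+/+, was -1.99 ± 0.16 (SE, adjusted p = 4.97e-06, edgeR quasi-likelihood test with the experiment as a block, n = 3 pairs), against -2.71 ± 0.16 in NPCs cultured alone.

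**Figure D1:**
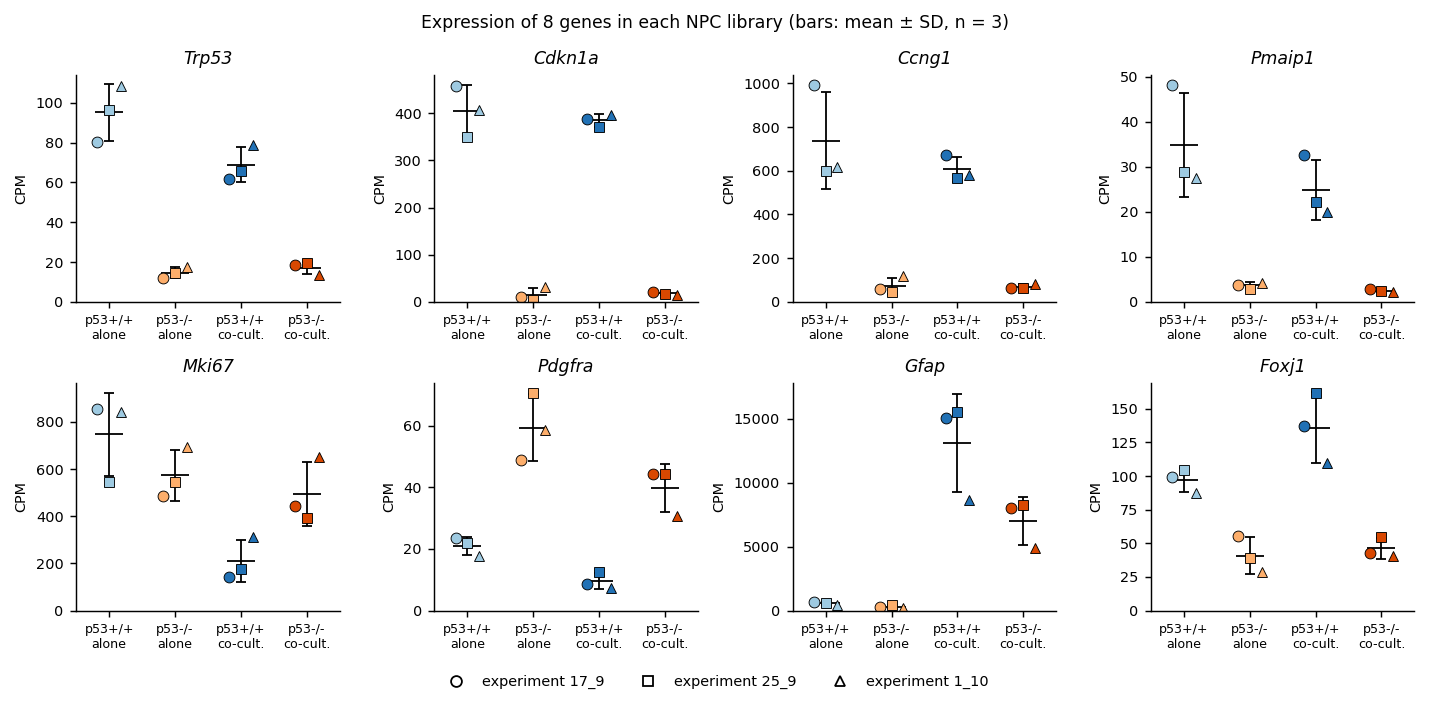
CPM of Trp53, Cdkn1a, Ccng1, Pmaip1, Mki67, Pdgfra, Gfap and Foxj1 (y axes, linear) in each library of the 4 groups (x axes). Symbols mark the experiment (circle 17_9, square 25_9, triangle 1_10) and bars the mean ± SD of 3 libraries. In co-culture Trp53, Cdkn1a, Ccng1, Pmaip1, Gfap and Foxj1 are lower and Mki67 and Pdgfra higher in each p53-/- library than in any p53+/+ library.

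Loss of p53 in co-culture changed genes in both directions in similar number, with the larger changes on the side of the fall. Of 13745 genes, 1412 were higher (10.3%) and 1522 lower (11.1%) in p53-/- co-culture at an adjusted p under 0.05, and 269 (1.96%) and 387 (2.82%) of them changed more than 2-fold. The median log2 fold change over all genes was 0.02. Without the experiment block, 458 genes were higher (3.33%) and 687 lower (5.0%). The counts were 189 and 344 without experiment 25_9, 528 and 641 without 1_10, and 2269 and 2230 without 17_9. With library size as the only scaling, 57.6% of the calls were on the higher side, against 48.1% with TMM. Hprt, at times used as a reference gene, was called higher (1.03 ± 0.21, adjusted p = 0.00454; without experiment 25_9 adjusted p = 0.0764), while Gapdh (-0.10 ± 0.12), Actb (0.12 ± 0.16) and Tbp (0.26 ± 0.11) were not called. Of the genes chosen by the naming rule, 134 were called in co-culture with the block. Their 15 fits without 1 library or experiment and 9 other settings never reversed the sign, 69 kept the call in all of them, and losses are given beside the others where they are named.

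**Figure D2:**
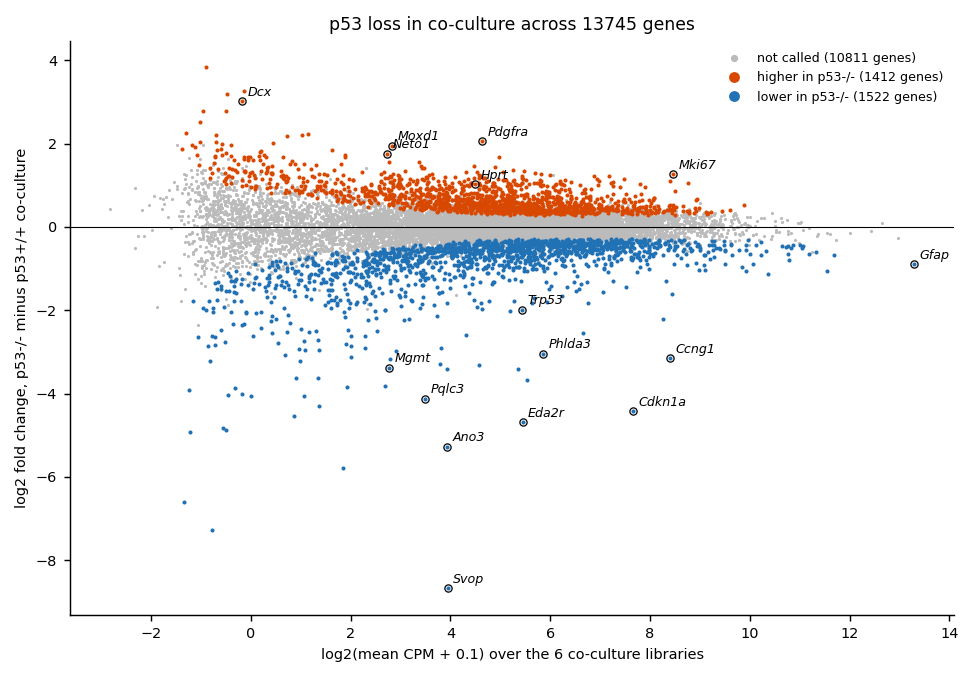
Log2 fold change of p53-/- minus p53+/+ co-culture (y axis) against the log2 of the mean CPM over the 6 co-culture libraries plus 0.1 (x axis) for 13745 genes. Orange points are the 1412 genes called higher and blue points the 1522 called lower. The falls of Ccng1, Cdkn1a and Eda2r lie far below the cloud, and the rises of Pdgfra, Moxd1 and Mki67 at its upper edge.

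Known targets of p53 were among the genes that fell most. Cdkn1a was at 389, 371 and 398 CPM in the p53+/+ co-cultures and at 21.7, 17.2 and 14.5 CPM in the p53-/- co-cultures. Ccng1, which encodes cyclin G1 and acts in feedback on p53, was at 674, 568 and 580 against 62.8, 61.4 and 83.9 CPM. The ranges were far apart for both, with log2 fold changes of -4.42 ± 0.58 (adjusted p = 0.00254) for Cdkn1a and -3.15 ± 0.29 (adjusted p = 9.87e-05) for Ccng1. The death receptor gene Eda2r went from 90.6, 71.5 and 89.0 to 4.06, 2.56 and 3.25 CPM (-4.69 ± 0.74, adjusted p = 0.00619). It stayed at -4.61 without experiment 25_9, with an adjusted p of 0.113 there, and lost its call with DESeq2 without the block. Klhdc7a, a gene of a kelch-repeat protein, went from 29.4, 31.5 and 22.6 to 2.70, 2.41 and 2.71 CPM (-3.41 ± 0.22, adjusted p = 8.83e-07). Counts of Svop, a gene of a synaptic vesicle protein, were 609, 774 and 449 in p53+/+ and 1, 3 and 0 in p53-/- co-cultures, or 33.2, 35.2 and 23.7 against 0.0501, 0.151 and 0 CPM. Its fitted change depends on the prior count and is no estimate of size.

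Stretches of promoter are shown for 3 of these genes, since their RefSeq promoter windows hold the half-site decamer of p53, of which a full response element takes a pair. They are 100 bases each, from 230 to 131 bases before the RefSeq start for Ccng1, 100 to 1 for Cdkn1a and 250 to 151 for Klhdc7a, in GRCm38.p6, which is another build than that of the counts, 5′ to 3′ on the strand of the gene, with the decamer in capitals. The Ccng1 stretch is chr11:40755417-40755516 on the minus strand, that of Cdkn1a is chr17:29090879-29090978 on the plus strand and that of Klhdc7a is chr4:139968177-139968276 on the minus strand.
Ccng1: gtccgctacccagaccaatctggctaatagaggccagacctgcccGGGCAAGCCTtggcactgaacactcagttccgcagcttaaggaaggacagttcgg
Cdkn1a: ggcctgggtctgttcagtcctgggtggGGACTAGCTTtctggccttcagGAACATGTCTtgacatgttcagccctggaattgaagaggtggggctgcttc
Klhdc7a: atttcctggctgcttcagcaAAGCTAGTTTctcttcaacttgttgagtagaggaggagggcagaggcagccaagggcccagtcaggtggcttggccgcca
The decamer reads alike on both strands and was searched in the 300 bases of each window. It was in 16 of 76 windows (21.1%) of 58 of the 71 tested genes on 3 lists of p53 targets, in 8.36% of all 32851 windows and in 6.86% of the 13210 windows of tested genes. Genes called lower in p53-/- co-culture held it in 7.75% of 1535 windows, and genes called higher in 6.77% of 1359 windows. The 2 matches in the Cdkn1a stretch were found singly and are not marked as a pair. Runs that depart from the decamer pattern at any base stay in lower case. A match is a run of letters and not a bound site.

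Other genes with the largest falls included some with roles outside the cell cycle. The channel-like anoctamin gene Ano3 went from 34.8, 20.5 and 34.1 to 0.651, 0.653 and 0.976 CPM (-5.28 ± 0.32, adjusted p = 6.86e-07), and the transporter-like Pqlc3 from 25.9, 20.0 and 17.3 to 0.601, 1.26 and 1.73 CPM (-4.12 ± 0.37). The AMPA receptor subunit gene Gria3 was at 96.9, 70.3 and 91.3 against 7.01, 6.23 and 6.83 CPM (-3.67 ± 0.20, adjusted p = 2.48e-07). For each of the 3 genes all p53-/- libraries lay far below all p53+/+ libraries. Mgmt, which removes methyl groups from guanine in DNA (-3.38 ± 0.26), Dcxr, a reductase of sugars (-3.32 ± 0.22), 1700007K13Rik (-3.82 ± 0.32) and 9030617O03Rik (-3.40 ± 0.30) fell as well, each with non-overlapping ranges.

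**Figure D3:**
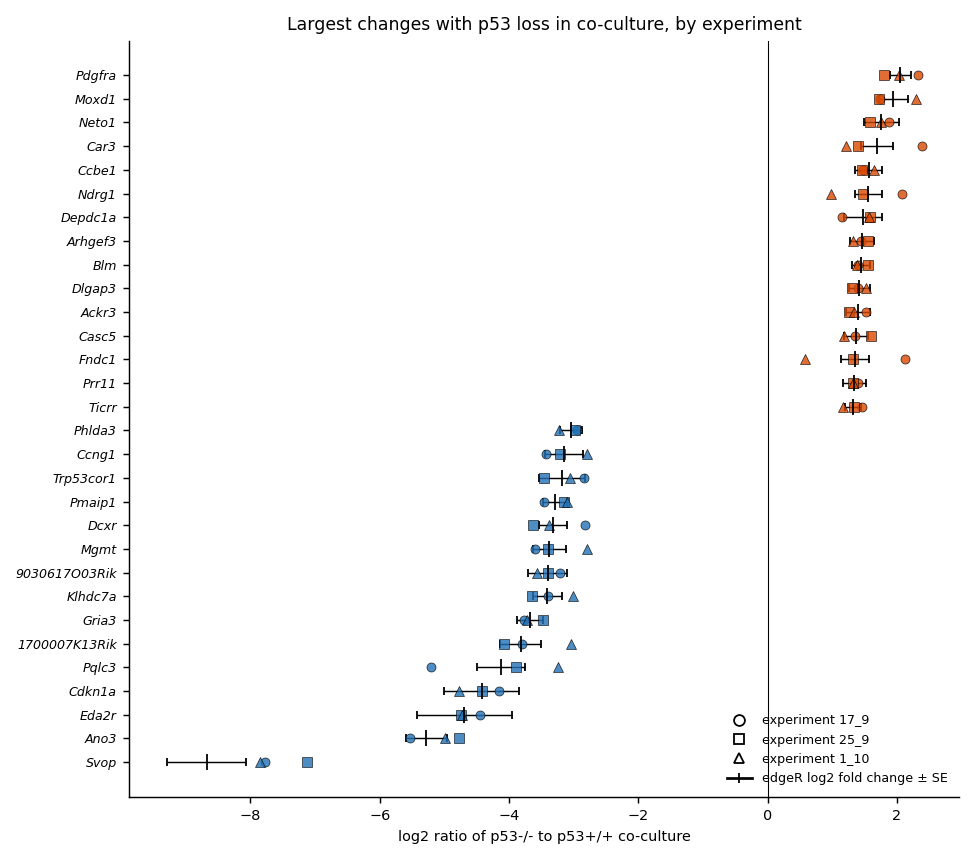
Log2 ratio of p53-/- to p53+/+ co-culture (x axis) within each experiment for the 15 genes with the largest rise and the 15 with the largest fall (y axis), among called genes with a mean of at least 2 log2 CPM and the same sign in the 3 pairs, with the edgeR log2 fold change ± SE as a bar. All ratios of a gene lie on the same side of 0 by this choice. The falls (from -3.05 for Phlda3) are larger than the rises (up to 2.06 for Pdgfra). The ratios of Svop rest on 0 to 3 counts in each p53-/- library.

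The 3 lists of known p53 targets were compared with the background of 11.1% of all genes lower and 10.3% higher. Of 24 targets in arrest and feedback, 12 were lower and 1 higher, with a median of -0.39. Phlda3, an inhibitor of Akt, went from 104, 113 and 94.4 to 13.3, 14.2 and 10.0 CPM (-3.05 ± 0.17, adjusted p = 2.48e-07). The stress-responsive Sesn2 (-1.70 ± 0.13), the G2 arrest gene Rprm (-1.86 ± 0.14) and the p53 cofactor Trp53inp1 (-1.83 ± 0.18) fell with it. Cdkn2a, which encodes the p53 activator ARF and the inhibitor p16, was the member that rose. It was at 32.3, 60.6 and 38.1 CPM in p53+/+ and 72.6, 90.4 and 62.9 CPM in p53-/- co-cultures (0.81 ± 0.15, adjusted p = 0.00235), higher within each experiment, and was not called without the block (adjusted p = 0.0597).

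Apoptosis targets fell by the largest median of the 3 lists, -1.05. Of 18 tested, 11 were lower (61.1%) and 0 higher, with 8 lower without the block and 7 without experiment 25_9. Pmaip1, which encodes the BH3-only protein Noxa, went from 32.5, 22.2 and 19.9 to 2.85, 2.41 and 2.22 CPM (-3.29 ± 0.19, adjusted p = 2.48e-07). The TRAIL receptor gene Tnfrsf10b went from 37.8, 31.7 and 31.6 to 6.26, 4.87 and 5.75 CPM (-2.59 ± 0.17). Aen, a nuclease of apoptosis (-1.66 ± 0.12), and Pidd1, which activates caspase-2 (-1.57 ± 0.14), also fell, and no library of either genotype crossed into the range of the other for these genes.

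Targets in DNA repair and metabolism went lower in 12 of 29 cases (41.4%) and higher in 3, with a median of -0.21 (12 and 1 without the block, 10 and 1 without experiment 25_9). The epoxide hydrolase gene Ephx1 was at 556, 501 and 454 against 109, 107 and 109 CPM (-2.21 ± 0.12, adjusted p = 2.48e-07). The adenylate kinase gene Ak1 (177, 180 and 160 against 34.2, 31.1 and 24.1 CPM, -2.54 ± 0.14) and the thiamine transporter gene Slc19a2 (-1.96 ± 0.13) fell too. Members that rose included the stress gene Ndrg1 (1.56 ± 0.20, adjusted p = 0.000246) and the translesion polymerase gene Polh (0.51 ± 0.10, adjusted p = 0.00402). Without experiment 25_9 the value of Polh was 0.50 (adjusted p = 0.135), and it also lost its call without the block. Trp53cor1, a long noncoding RNA induced by p53, went from 14.3, 12.1 and 10.3 to 1.90, 1.00 and 1.14 CPM (-3.18 ± 0.36, adjusted p = 0.000105).

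Mitotic genes rose almost without exception. Of 74 tested, 72 were higher (97.3%) and 0 lower, against 10.3% of all genes higher, with a median log2 fold change of 1.02. The summed level of the 74 genes was 2670, 3122 and 4408 CPM in the p53+/+ and 5452, 6208 and 8571 CPM in the p53-/- co-cultures of experiments 17_9, 25_9 and 1_10. The ranges did not overlap, and in both genotypes experiment 1_10 was highest. The median log2 ratio was 1.03, 1.02 and 0.96 in the 3 experiments, where that of the endothelial genes was -0.49, -0.48 and 0.07, and the part of endothelial cells in the result was not tested. There were 69 members higher without the block and 44 without experiment 25_9.

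Mki67, which coats mitotic chromosomes and marks cycling cells, was at 143, 175 and 314 CPM in p53+/+ and 444, 391 and 650 CPM in p53-/- co-cultures (1.26 ± 0.18, adjusted p = 0.000398). The polo-like kinase gene Plk1 went from 25.8, 40.0 and 49.8 to 78.7, 93.2 and 97.0 CPM (1.24 ± 0.15, adjusted p = 0.00014). Every p53-/- library was above every p53+/+ library for both genes. The checkpoint kinase gene Bub1b (1.03 ± 0.12), the chromokinesin gene Kif22 (1.13 ± 0.13) and Cdca2 (0.98 ± 0.11), whose product targets a phosphatase to chromatin, rose with them. Among the 15 largest rises of genes with a mean of at least 2 log2 CPM, Depdc1a (1.47 ± 0.29) and Casc5, a kinetochore scaffold (1.37 ± 0.19), act in mitosis, and Prr11 (1.34 ± 0.18) in cell-cycle progression. Depdc1a lost its call when experiment 25_9 was left out (1.41, adjusted p = 0.140), as did Casc5 without the block (adjusted p = 0.0515).

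The promoters of mitotic genes are known for a short element, TTTGAA, that acts late in the cell cycle, and for CCAAT boxes. The 2 stretches of 100 bases, from 145 to 46 bases before the start for Mki67 and 100 to 1 for Kif22, show the first with TTTGAA or its reverse complement TTCAAA in capitals, in GRCm38.p6. They are chr7:135716425-135716524 for Mki67 and chr7:127042421-127042520 for Kif22, both on the minus strand, and are written on the strand of the gene.
Mki67: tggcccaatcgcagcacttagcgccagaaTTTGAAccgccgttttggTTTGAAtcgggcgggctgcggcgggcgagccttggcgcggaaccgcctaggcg
Kif22: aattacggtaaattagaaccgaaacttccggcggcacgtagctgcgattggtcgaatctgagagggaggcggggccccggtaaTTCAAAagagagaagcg
On either strand of the 300-base windows, TTTGAA was in 44 of 65 windows of 60 mitotic genes (67.7%), in 17.9% of all windows and in 11.5% of those of tested genes. CCAAT was in 72.3%, 37.4% and 37.7%. In 57 windows of 46 DNA replication genes the shares were 10.5% for TTTGAA and 56.1% for CCAAT. Of all genes called higher in p53-/- co-culture, 18.8% of 1359 windows held TTTGAA, and of those called lower 9.97% of 1535. The motifs were searched apart, so that a base may count for both.

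DNA replication genes rose less and in part. Of 55 tested, 44 were higher (80.0%, against 10.3% of all genes) and 0 lower, with a median of 0.62 and medians of 0.57, 0.62 and 0.62 within the experiments. Ticrr, needed to load the replicative helicase, was at 9.97, 12.6 and 17.2 CPM in p53+/+ and 27.6, 32.1 and 38.9 CPM in p53-/- co-cultures (1.32 ± 0.12, adjusted p = 1.37e-05). The clamp loader gene Rfc4 (1.09 ± 0.15), the licensing factor gene Cdt1 (0.88 ± 0.15) and the fork protection gene Timeless (0.79 ± 0.12) rose as well, Cdt1 not without experiment 25_9 (0.85, adjusted p = 0.0598). Blm, the helicase mutated in Bloom syndrome, rose by a similar size (1.45 ± 0.14, adjusted p = 3.19e-05). The count of members called higher was 22 without the block, 4 without experiment 25_9, 22 without 1_10 and 52 without 17_9, while 0 were lower in each of these fits.

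Cyclins, cyclin-dependent kinases and their inhibitors held both sides of the cell cycle. Of 26 tested, 12 were higher (46.2%, against 10.3% of all genes) and 2 lower, with a median of 0.37 (4 and 1 without the block, 2 and 0 without experiment 25_9). The kinase inhibitor gene Cdkn1c, which encodes p57, was at 0.436, 0.637 and 0.580 CPM in p53+/+ and 3.00, 2.86 and 1.84 CPM in p53-/- co-cultures (2.18 ± 0.27, adjusted p = 0.000184). Levels were low in both genotypes, without overlap. The repressors of the E2F family E2f7 (0.91 ± 0.18) and E2f8 (0.75 ± 0.14) and the activator E2f2 (0.94 ± 0.16, adjusted p = 0.0014) rose, of which E2f7 (0.81, adjusted p = 0.0995) and E2f8 (0.69, adjusted p = 0.0962) were not called without experiment 25_9, nor E2f8 without the block (adjusted p = 0.0522). The inhibitor gene Cdkn2b was lower (-0.61 ± 0.14, adjusted p = 0.0066; -0.49 and adjusted p = 0.151 without experiment 25_9). Ccnd2, cyclin D2, was at 711, 731 and 1037 against 499, 643 and 689 CPM (-0.43 ± 0.14, adjusted p = 0.0406), with ranges apart by little and a call lost in 9 of 15 fits without 1 library or experiment (-0.55 and adjusted p = 0.157 without experiment 25_9) and without the block (adjusted p = 0.108).

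**Figure D4:**
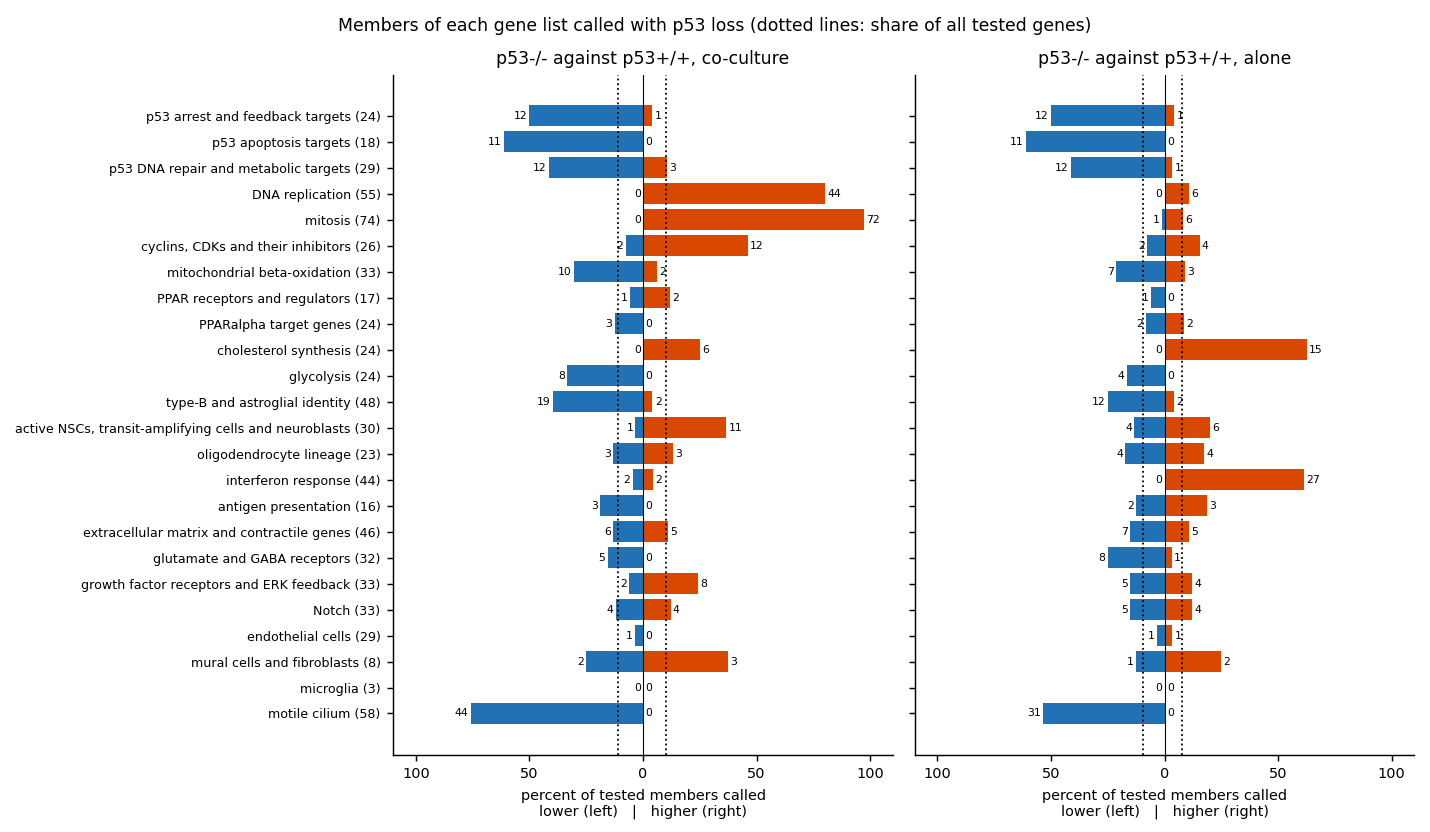
Percent of tested members of each gene list (y axis, number tested in brackets) called higher (orange, right) or lower (blue, left) in p53-/- than p53+/+ NPCs in co-culture (left panel) and alone (right panel), with the number called at each bar and the share of all genes as dotted lines. In co-culture mitosis (72 of 74) and DNA replication (44 of 55) lie far on the higher side and p53 targets and motile cilium (44 of 58) on the lower side. Alone, 6 mitosis and 27 interferon response genes are higher.

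Type-B and astroglial genes were lower in part. Of 48 tested, 19 were lower (39.6%, against 11.1% of all genes) and 2 higher, with a median of -0.32. Gfap, whose product forms intermediate filaments in astrocytes and type-B cells, was at 15065, 15515 and 8652 CPM in p53+/+ and 8006, 8209 and 4853 CPM in p53-/- co-cultures. The p53-/- level was lower within each experiment and the groups did not overlap, and experiment 1_10 was lowest in both. The log2 fold change was -0.89 ± 0.14 (adjusted p = 0.000691) and was not called without the block (adjusted p = 0.0816). The gap junction gene Gja1 went from 1391, 1225 and 1047 to 642, 605 and 636 CPM (-0.96 ± 0.13, adjusted p = 0.000322), the chemokine gene Cxcl14 from 64.9, 64.6 and 51.5 to 30.1, 31.3 and 25.3 CPM (-1.06 ± 0.10, adjusted p = 1.72e-05).

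The carboxypeptidase gene Cpe was lower as well (-0.66 ± 0.10, adjusted p = 0.000615; -0.57 and adjusted p = 0.0735 without experiment 25_9). The 2 members that rose were the Notch effector gene Hes1 (0.62 ± 0.15, adjusted p = 0.0103) and the nuclear factor gene Nfib (0.46 ± 0.13, adjusted p = 0.02). Hes1 lost its call in 4 and Nfib in 6 of the 15 fits without 1 library or experiment (0.71 and 0.47 without experiment 25_9, adjusted p = 0.0918 and 0.211), and Nfib without the block as well (adjusted p = 0.14). Over the list, 4 members were lower without the block, 5 without experiment 25_9, 11 without 1_10 and 25 without 17_9.

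Genes of active neural stem cells, transit-amplifying cells and neuroblasts were more often higher. Of 30 tested, 11 were higher (36.7%, against 10.3% of all genes) and 1 lower, with a median of 0.19. Dcx, the microtubule protein of neuroblasts, was at 0.109, 0.228 and 0.158 CPM in p53+/+ and 1.55, 1.76 and 0.922 CPM in p53-/- co-cultures (3.02 ± 0.42, adjusted p = 0.00037), at a low level in all 6 libraries. Sox11, a neuronal transcription factor, went from 40.8, 46.1 and 67.5 to 72.2, 92.5 and 124 CPM (0.90 ± 0.17, adjusted p = 0.00221; 0.86 and adjusted p = 0.0684 without experiment 25_9). Gsx2, a factor of the lateral ganglionic eminence lineage, rose (1.15 ± 0.20, adjusted p = 0.00157), but not without experiment 25_9 (1.14, adjusted p = 0.0784) or the block (adjusted p = 0.0682), as did Gad2, which makes GABA (0.80 ± 0.19, adjusted p = 0.00842; 0.64 and adjusted p = 0.192 without experiment 25_9, and 0.259 without the block). Tubb3, a neuronal tubulin, was the member that fell (-0.72 ± 0.12, adjusted p = 0.00107, and 0.315 without the block). The count of members higher was 4 without the block, 1 without experiment 25_9 and 2 without 1_10.

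Pdgfra, the receptor of oligodendrocyte progenitors, had the largest rise of the genes ranked. It was at 8.72, 12.7 and 7.43 CPM in p53+/+ and 44.2, 44.3 and 30.6 CPM in p53-/- co-cultures (2.06 ± 0.16, adjusted p = 4.16e-06), with no overlap. The other oligodendrocyte lineage genes went both ways: of 23 tested, 3 were higher (13%) and 3 lower (13%), near the shares of all genes, with a median of 0.18 (2 and 1 without the block). Ugt8a, a myelin lipid enzyme, rose from 1.63, 1.73 and 1.74 to 4.46, 5.78 and 6.18 CPM (1.67 ± 0.22, adjusted p = 0.000262). C1ql1, a secreted protein of progenitors, fell from 22.2, 25.4 and 11.8 to 9.77, 14.7 and 4.61 CPM (-1.09 ± 0.17, adjusted p = 0.000739, and 0.145 without the block).

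The other genes of the 15 largest rises have various roles. Moxd1, a monooxygenase-like gene, went from 2.18, 4.10 and 2.42 to 7.51, 13.7 and 12.4 CPM (1.95 ± 0.23, adjusted p = 0.000106), and Neto1, an auxiliary subunit of glutamate receptors, from 2.89, 3.64 and 2.37 to 10.9, 11.1 and 8.24 CPM (1.76 ± 0.27, adjusted p = 0.000722). The chemokine scavenger gene Ackr3 (1.40 ± 0.19), the exchange factor gene Arhgef3 (1.46 ± 0.19), the postsynaptic scaffold gene Dlgap3 (1.42 ± 0.17), the lymphangiogenic Ccbe1 (1.56 ± 0.21), the carbonic anhydrase gene Car3 (1.69 ± 0.25) and Fndc1 (1.35 ± 0.22) rose as well. Car3, Ndrg1 and Fndc1 varied most between experiments, with the highest ratio in 17_9 and the lowest in 1_10.

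Growth factor receptors and ERK feedback genes were higher in 8 and lower in 2 of 33 cases (24.2% and 6.06%, against 10.3% and 11.1% of all genes, median 0.10), with 2 and 2 without the block and 1 and 1 without experiment 25_9. The ETS factor gene Etv1 rose (0.63 ± 0.11, adjusted p = 0.00138; 0.59 and adjusted p = 0.0701 without experiment 25_9), while the ERK inhibitor gene Spred3 (-0.62 ± 0.10, adjusted p = 0.00125) and the neurotrophin receptor gene Ntrk2 fell (-0.64 ± 0.11, adjusted p = 0.00146; -0.64 and adjusted p = 0.0621 without experiment 25_9). Of 33 Notch genes, 4 were higher (12.1%) and 4 lower (12.1%), near the shares of all genes, with a median of 0.07. Higher and lower were 4 and 1 without the block, 2 and 1 without experiment 25_9 and 4 and 0 without 1_10. The inhibitory ligand gene Dll3 went from 5.34, 8.65 and 6.90 to 15.9, 17.7 and 13.6 CPM (1.20 ± 0.16, adjusted p = 0.000221), and the fringe gene Mfng rose (1.16 ± 0.17). Lower were Dner, a Notch ligand-like gene (-0.55 ± 0.11), and Psen2, a subunit of γ-secretase (-0.71 ± 0.14), both lost without experiment 25_9 (-0.55 and -0.76, adjusted p = 0.108 and 0.0913) and without 1_10, and Psen2 also without the block (adjusted p = 0.0682).

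Among 32 receptors for glutamate and GABA, 0 were higher and 5 lower (15.6%), against 10.3% and 11.1% of all genes. The median was 0.09, and 3 were lower without the block and 2 without experiment 25_9. Besides Gria3, the GABA receptor subunit gene Gabrb1 went from 18.6, 14.9 and 13.6 to 7.26, 5.83 and 6.34 CPM (-1.27 ± 0.21, adjusted p = 0.00093). Gria1 was at 114, 126 and 140 against 71.0, 78.8 and 86.1 CPM (-0.69 ± 0.15, adjusted p = 0.0056), and lost its call without experiment 25_9 (-0.69, adjusted p = 0.0771), 1_10 or the block (adjusted p = 0.0873).

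Genes of motile cilia, which cover ependymal cells, were lower as a group. This list was added after the data were seen, and its counts describe it only. Of 58 tested, 44 were lower (75.9%, against 11.1% of all genes) and 0 higher, with a median of -1.53 and medians of -1.56, -1.60 and -1.34 within the experiments. The summed level of the 67 members listed was 620, 591 and 460 CPM in p53+/+ and 287, 271 and 266 CPM in p53-/- co-cultures. Foxj1, the master regulator of motile ciliogenesis, went from 137, 162 and 109 to 43.2, 54.9 and 40.8 CPM (-1.55 ± 0.16, adjusted p = 3.42e-05). The axonemal dynein gene Dnah11 went from 4.58, 3.09 and 2.16 to 0.250, 0.251 and 0.271 CPM (-3.62 ± 0.37, adjusted p = 3.42e-05), and Ccdc40, which sets the axonemal repeat length, from 9.48, 8.42 and 6.64 to 1.5, 1.16 and 1.36 CPM (-2.61 ± 0.24). All p53-/- libraries were below all p53+/+ libraries for these genes and for Armc3 (-2.90 ± 0.30). The count was 36 without the block and 25 without experiment 25_9. In NPCs alone 31 of the members were lower (16 without the block) and 0 higher.

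**Figure D5:**
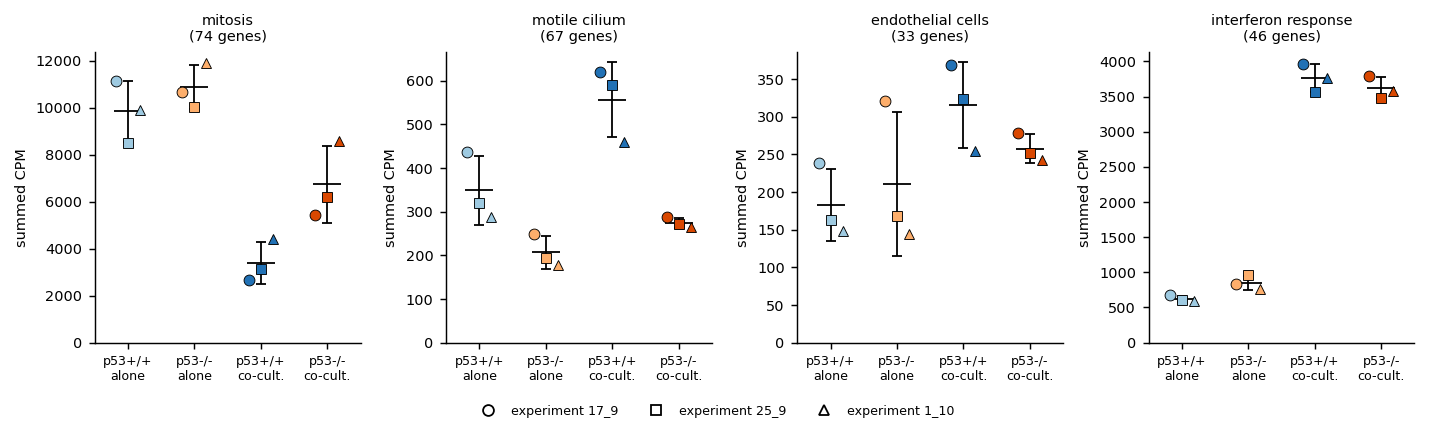
Summed CPM (y axes, linear) of the mitosis, motile cilium, endothelial and interferon response lists in each library of the 4 groups (x axes), with symbols by experiment and bars for the mean ± SD of 3 libraries. In co-culture the mitosis sum is higher and the cilium sum lower in every p53-/- library. The endothelial and interferon sums overlap between genotypes, while both are lower in p53-/- within each experiment.

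Genes of fatty-acid oxidation were lower in a minority of cases. Of 33 mitochondrial β-oxidation genes, 10 were lower (30.3%, against 11.1% of all genes) and 2 higher, with a median of -0.23. Cpt1c, the brain form of carnitine palmitoyltransferase 1 and a p53 target, is not on this list. It went from 202, 221 and 173 to 72.6, 69.7 and 58.3 CPM (-1.57 ± 0.11, adjusted p = 2.29e-06), the largest fall among the genes of lipid metabolism named here. The largest fall on the list was that of the acyl-CoA dehydrogenase gene Acad11, from 103, 87.7 and 71.3 to 61.1, 46.6 and 43.4 CPM (-0.80 ± 0.10, adjusted p = 0.000203). Smaller falls were those of Acadm (-0.50 ± 0.10), Acadsb (-0.59 ± 0.12) and Cpt2 (-0.46 ± 0.10), with adjusted p from 0.00372 to 0.00494. None of these 3 was called without experiment 25_9 (-0.46, -0.56 and -0.46, adjusted p = 0.156, 0.119 and 0.153), nor Cpt2 without 1_10 or Acadsb without the block (adjusted p = 0.0583). Acat1, which also cleaves ketone-derived acetoacetyl-CoA (0.33 ± 0.09, adjusted p = 0.0222), and the acyl-CoA synthetase gene Acsl4 (0.60 ± 0.15, adjusted p = 0.0149) were the members called higher, and neither was called without the block (adjusted p = 0.11 and 0.126) or without experiment 25_9 (0.37 and 0.56, adjusted p = 0.232 and 0.198). The list had 6 lower without the block, 1 without experiment 25_9, 4 without 1_10 and 18 without 17_9.

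The regulators of this pathway differed little. Ppargc1a, the coactivator PGC-1α, was at 112, 83.5 and 103 CPM in p53+/+ and 108, 77.1 and 93.5 CPM in p53-/- co-cultures. It was lower in p53-/- within each experiment, with overlapping ranges, and was not called (-0.10 ± 0.14, adjusted p = 0.647). The receptor genes Ppara (11.5, 9.78 and 11.8 against 10.5, 9.69 and 10.2 CPM, -0.12 ± 0.23) and Ppard (39.9, 42.8 and 39.0 against 42.1, 40.4 and 34.5 CPM, -0.06 ± 0.12) were not called either. In NPCs alone Ppargc1a was lower in p53-/- (-0.69, adjusted p = 0.00617), and the difference between the cultures was not called (adjusted p = 0.238). By qPCR, another measure, the study reports a significant decrease of Ppargc1a in p53-/- co-cultures. Of 17 PPAR receptors and regulators, 2 were higher (11.8%) and 1 lower (5.88%), against 10.3% and 11.1% of all genes (median 0.15), or 1 and 0 without the block and 0 and 0 without experiment 25_9. Among them were the deacetylase gene Sirt1 (0.57 ± 0.14) and the orphan receptor gene Esrra (-0.41 ± 0.11), neither of them called without experiment 25_9 (0.53 and -0.35, adjusted p = 0.202 and 0.301), nor Esrra without the block (adjusted p = 0.127).

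Of 24 tested PPARα targets, 0 were higher and 3 lower (12.5%, against 11.1% of all genes, median -0.28). Lower were 2 without the block, 0 without experiment 25_9, 1 without 1_10 and 9 without 17_9. Called or not, 2 of the 24 had a log2 fold change above 0. The median was -0.39 within experiment 17_9, -0.34 within 25_9 and -0.31 within 1_10. The malic enzyme gene Me1 (-0.57 ± 0.10), among the 3 called, was at -0.61 when experiment 25_9 was left out (adjusted p = 0.0629). Of 24 cholesterol synthesis genes, 6 were higher (25%, against 10.3% of all genes, median 0.28) and 0 lower. Called or not, all 24 had a log2 fold change above 0. Without the block, without experiment 25_9 or without 1_10, 0 were called, and without 17_9 17 were higher. Stard4, a sterol carrier, was the first of the 6 called in the main fit (31.7, 32.1 and 46.7 against 37, 60.2 and 95.3 CPM, 0.74 ± 0.15, adjusted p = 0.00482, and 0.132 without the block). Of 24 glycolysis genes, 8 were lower (33.3%, against 11.1% of all genes, median -0.16) and 0 higher, with 2 lower without the block and 0 without experiment 25_9. The monocarboxylate transporter gene Slc16a1 was at 280, 260 and 223 against 142, 169 and 175 CPM (-0.65 ± 0.13, adjusted p = 0.00432; -0.67 and adjusted p = 0.0806 without experiment 25_9).

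Matrix and contractile genes were near the shares of all genes (10.3% higher and 11.1% lower), with 5 of 46 higher (10.9%) and 6 lower (13%, median -0.04). Mmp2, a matrix metalloproteinase known as a p53 target, went from 12.7, 5.78 and 10.5 to 2.80, 1.36 and 0.976 CPM (-2.49 ± 0.25, adjusted p = 2.88e-05). The inhibitor gene Timp1 (-1.38 ± 0.17), the collagen gene Col18a1 (-1.01 ± 0.11) and the thrombospondin gene Thbs2 (-0.92 ± 0.12) fell as well. The 5 members higher included Fbln2, a basement membrane fibulin (164, 194 and 298 against 440, 434 and 485 CPM, 1.11 ± 0.26, adjusted p = 0.0129), but 0 were called without the block or without experiment 25_9, Fbln2 included (adjusted p = 0.0865 and 0.075). Of 8 tested genes of mural cells and fibroblasts, 3 were higher and 2 lower, and 0 without the block. The summed level of the 16 listed was 220 to 226 CPM in p53+/+ and 141 to 173 CPM in p53-/- co-cultures, without overlap. Pdgfrb was higher (3.37 to 4.52 and 5.48 to 11.5 CPM) and Rgs5 lower (0.865 to 1.20 and 0.217 to 0.501 CPM), each without overlap. Neither was called without experiment 25_9 (1.05 and -1.59, adjusted p = 0.0755 and 0.0995). Kcnj8 (0.263 to 0.683 and 0.0502 to 0.271 CPM) and Myh11 (0.327 to 0.546 and 0.163 to 0.801 CPM) overlapped. The defining fibroblast gene Dcn was at 0 to 0.0455 and 0 to 0.250 CPM, and Lum at 0 and at 0 to 0.108 CPM. Of 3 microglial genes tested, 0 were called. The 15 listed summed to 32.4 to 39.0 CPM in p53+/+ and 36.4 to 42.7 CPM in p53-/- co-cultures, with the microglial receptor gene P2ry12 at 2.79 to 4.41 and 2.66 to 4.45 CPM and Aif1 at 0.0455 to 0.0545 and at 0 CPM.

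Few interferon response genes were called in co-culture. Of 44 tested, 2 were higher (4.55%) and 2 lower (4.55%), against 10.3% and 11.1% of all genes, with a median of 0.00. Higher and lower were 2 and 0 without the block, 1 and 0 without experiment 25_9 and 2 and 0 without 1_10. The sum of the 46 listed was 3563 to 3963 CPM in p53+/+ and 3482 to 3788 CPM in p53-/- co-cultures. The antiviral gene Rsad2 was at 76.7, 61.0 and 74.5 against 165, 132 and 111 CPM (0.91 ± 0.20, adjusted p = 0.0065). Mx1 went from 0.926, 1.46 and 1.42 to 3.61, 4.12 and 2.82 CPM (1.48 ± 0.33, adjusted p = 0.00684; 1.46 and adjusted p = 0.0787 without experiment 25_9). Antigen presentation was lower in 3 of 16 cases (18.8%, against 11.1% of all genes, median -0.17), among them the peptide transporter gene Tap1 (65.2, 66.6 and 55.6 against 35.9, 36.6 and 28.5 CPM, -0.90 ± 0.11, adjusted p = 0.000164).

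The effect of p53 loss in co-culture was then set against that in NPCs cultured alone, where 1042 genes were higher (7.58%) and 1315 lower (9.57%), or 282 (2.05%) and 589 (4.29%) without the block. Called in both cultures were 408 higher genes, which are 28.9% of those higher in co-culture and 39.2% of those higher alone, and 811 lower genes, which are 53.3% and 61.7%. In opposite directions were 2 and 4. The test of the difference between the effects called 11 genes (0.0800%) with edgeR, 3 with a higher value in co-culture and 8 with a lower one, and 1867 genes (13.6%) at an unadjusted p under 0.05. It called 5 without the block, 275 with DESeq2 and 25 with DESeq2 without the block, and between 2 (without experiment 25_9 or 1_10) and 159 (without 17_9) when libraries were left out.

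For the proliferation lists, the values of the 2 cultures stand side by side as follows. In NPCs alone 6 mitosis genes were higher and 1 lower (1 and 1 without the block), with a median of 0.25 and of 0.14, 0.28 and 0.36 within the experiments, against 1.02 in co-culture. In DNA replication 6 were higher and 0 lower alone (1 and 0 without the block), with a median of 0.29 against 0.62. The summed level of mitosis genes was 8512 to 11130 CPM in p53+/+ and 10053 to 11914 CPM in p53-/- NPCs alone. At an unadjusted p under 0.05 the effects differed for 62 of the 74 mitosis genes and 17 of the 55 replication genes, against 13.6% of all genes, and 1 gene of each list was called after adjustment. These were Mki67 (-0.38 alone against 1.26, difference 1.64 ± 0.25, adjusted p = 0.0328) and Ticrr (0.31 against 1.32, difference 1.02 ± 0.16, adjusted p = 0.0362). Neither difference was called without the block (adjusted p = 0.619 and 0.64), and they lost their call in 8 and 10 of the 15 fits without 1 library or experiment, with ranges from 1.23 to 1.89 and from 0.87 to 1.17.

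The other calls of the difference were for genes that changed more in NPCs alone. Of the interferon response genes, 27 of 44 were higher alone with a median of 0.94, 6 differed between the cultures after adjustment and 32 at an unadjusted p under 0.05. Rtp4, Isg15 and Ifit1 had the smallest p, with log2 fold changes of 3.00, 2.69 and 3.02 alone. In co-culture these genes were at 80.7, 76.9 and 81.7, at 36.1, 46.7 and 33.6 and at 128, 112 and 107 CPM in p53+/+ libraries, and at 73.6, 73.6 and 84.4, 41.2, 50.5 and 27.7, and 116, 108 and 93.0 CPM in p53-/- libraries, with overlapping ranges for each. The sign of these small co-culture differences turned in some of the alternatives, and the cultures start from different levels, since the summed interferon level was 597 to 676 CPM in p53+/+ NPCs alone.

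Cholesterol synthesis had 15 members higher alone (median 0.51) and 6 in co-culture, or 4 and 0 without the block. Ggta1, which makes the α-galactosyl epitope, fell in both cultures, by 1.77 on the log2 scale in co-culture (77.3, 57.4 and 45.2 to 22.3, 17.5 and 12.7 CPM) and by 3.70 alone, and the difference was called (adjusted p = 0.0333) with the block but not without it (adjusted p = 0.323). The 3 lists of p53 targets had 12, 11 and 12 members lower alone, as in co-culture, with medians of -0.64, -1.14 and -0.18, and 0 of their members differed between the cultures after adjustment in edgeR (6, 2 and 5 at an unadjusted p under 0.05).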

How the data were processed

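Bulk RNA-seq gave 12 libraries of SVZ NPCs, 3 in each of 4 groups. The authors aligned paired reads of stranded mRNA libraries to mm9 with TopHat2 2.0.11 and counted them per gene with HTSeq 0.6.1, and the deposited values are these raw counts. The sources used here give neither the strand setting of the counting nor the annotation version, so that overlapping, antisense and near-identical genes (I830012O16Rik and other Ifit genes among them) are uncertain. Of 24108 genes listed by symbol, 18810 had a count, and 27 symbols turned into dates (up to 0.41% of a library's counts) were tested as listed and are not named.

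With edgeR 4.0.16 in R 4.3.3, 13745 genes passed filterByExpr. TMM-scaled counts of all 12 libraries were fitted by a robust quasi-likelihood model with 4 group coefficients, which then share 1 estimate of the spread, and the experiment as a block. P-values were adjusted by Benjamini-Hochberg over all genes, with a threshold of 0.05. The SE is the size of the log2 fold change over the square root of F. The study's key to the columns states that identical numbers mark paired experiments. Deviations from group means correlated in all 18 same-numbered pairs of libraries (r from 0.128 to 0.618), against -0.608 to 0.241 in the 36 pairs of different number, so the numbers were used as pairs. What the 3 experiments share in animals is not stated, and p-values measure the spread between these libraries. No 2 libraries of a group were copies of 1 sample (chi-square per degree of freedom 13.2 to 62.5).

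Genes named are Trp53, the 15 largest changes on each side among called genes with a mean of at least 2 log2 CPM and the same sign in the 3 pairs, at most 4 called members per list and side, the 8 smallest p of the difference between cultures, 5 genes of the study's question and 4 reference genes. Some genes that meet the rule are not reported here. The genes and the 23 lists were chosen with earlier results of these data known, and the motile cilium list was added after the data were seen. Lists are described by counts and medians, and no test of a list was run. Promoter windows are from RefSeq (GRCm38.p6), matched by symbol. Alternatives were DESeq2 1.42.0, 3 other scalings, 2 other filters, no block, only the groups compared, and fits without each library or experiment. The main edgeR fit of the co-culture comparison was run on simulated counts without an experiment effect, and the other fits were not. Figures were drawn with matplotlib 3.10.9.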

Additional observations from a re-analysis of the deposited data

Results flagged for a closer look

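The effect of p53 loss differed between co-culture and NPCs cultured alone for the following named genes by the interaction test of edgeR with the experiment block, given as the log2 fold change in co-culture minus that alone. Each of Rtp4 (-3.05 ± 0.31, adjusted p = 0.00284), Isg15 (-2.69 ± 0.29, adjusted p = 0.00284), Ifit1 (-3.15 ± 0.35, adjusted p = 0.00311), Xaf1 (-1.97 ± 0.29, adjusted p = 0.0276) and I830012O16Rik (-2.24 ± 0.33, adjusted p = 0.0276), all genes of the interferon response, and Trim47 (-2.34 ± 0.29, adjusted p = 0.00515) rose in p53-/- NPCs alone and changed by -0.61 to 0.00 in co-culture. Of these, I830012O16Rik was called lower in co-culture (-0.61, adjusted p = 0.018, edgeR) and was at 1.63 alone. Its co-culture call was lost in 5 of the 15 fits without 1 library or experiment, and without the block. Mki67 (1.64 ± 0.25, adjusted p = 0.0328) and Ticrr (1.02 ± 0.16, adjusted p = 0.0362) rose in co-culture and were not called alone. Ggta1 (1.93 ± 0.30, adjusted p = 0.0333) fell in both, less in co-culture.

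Without the block the differences of Rtp4, Ifit1, Trim47 and Xaf1 were called (adjusted p = 0.00505, 0.028, 0.0288 and 0.037) and those of Isg15, I830012O16Rik, Mki67, Ticrr and Ggta1 were not (0.277, 0.277, 0.619, 0.64 and 0.323). When 1 library or experiment was left out, the call was lost in 1 of 15 fits for Rtp4 (without experiment 1_10), Isg15 and Ifit1 (without 25_9), in 2 for Trim47 (without 25_9 or 1_10), in 6 for I830012O16Rik, in 7 for Xaf1 and Ggta1, in 8 for Mki67 and in 10 for Ticrr. The sign was the same in each of these fits.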

How the results depend on the processing

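The number of calls depended on the pairing and on single experiments. Without the experiment block, 458 genes were higher and 687 lower in p53-/- co-culture (1412 and 1522 with it), 282 and 589 alone (1042 and 1315), and 5 differed between the cultures (11). The values without the block stand beside the co-culture genes named that lost their call and beside the lists whose count it moved by over 1.5 times. DESeq2 without the block called 760 and 998 in co-culture, 516 higher alone and 25 between the cultures, and DESeq2 with the block 275 between the cultures. That test called 23 genes with no low-count filter. A fit of the 2 co-culture groups only called 2647 and 2534. When 1 library or experiment was left out, the calls ranged from 189 to 2269 higher and 344 to 2230 lower in co-culture, 131 to 1322 higher and 468 to 1664 lower alone, and 2 to 159 between the cultures, with the lowest value of each without experiment 25_9 and the highest without 17_9, except that of genes lower alone, which was without the p53-/- co-culture library of 17_9. The cause was not tested, other than that fewer libraries remain. Reversals were those of genes near 0 that were not called in co-culture. Isg15 was at 0.0351 without the block, 0.0319 with DESeq2 without the block, 0.0385 with library size alone and 0.0117 in the fit of 2 groups. With libraries left out Isg15 ranged from -0.15 to 0.23, Rtp4 from -0.21 to 0.0931, Ifit1 from -0.27 to 0.0441, Actb from -0.0497 to 0.23, Ppara from -0.35 to 0.11 and Ppard from -0.19 to 0.0127. Of 3207 alternative values of the 134 genes chosen by the naming rule and called in co-culture, 2903 kept direction and call, 304 kept the direction only and 0 reversed. The fit of only 2 groups cannot give the difference between the cultures. At these depths, genes such as Svop and Cdkn1c rest on few counts in 1 genotype.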
